A study of Mus musculus with 16 samples.

Results

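The genes described here are 9 genes of the blood-retina barrier, chosen by name: the transporters Slco1c1, Slc38a5, Slco1a4, Mfsd2a and Abcb1a, the vesicle diaphragm gene Plvap, and the tight junction genes Cldn5, Ocln and Tjp1. All probes of the array that carried these names, current or older, were taken. This gave 14 probes for 8 of the 9 genes, out of 23362 genes with a probe bright enough to use. Retinas of C57Bl6 mouse pups were profiled on 16 2-colour arrays, each setting 1 retinal RNA sample (Cy3) against a common pool of equal amounts of RNA from the same experiment (Cy5). Of the samples, 4 were from eyes given 4 µg of Dll4-Fc, 5 from eyes given 1 µg of VEGF-A, 3 from the group named VEGF Trap, and 4 from eyes given 4 µg of hFc alone, the control protein. Injection into the vitreous was at 8 days of age and retinas were taken 24 h later; the sources used here state neither the dose of VEGF Trap nor the age of those pups. Dll4-Fc is a Notch ligand fused to an Fc, VEGF-A is the main growth factor of blood vessels and VEGF Trap is a decoy receptor that binds it. The labels do not say whether the samples of a group came from separate animals, so p-values measure only the spread between these samples. The titles of hFc 1 and hFc 2 share part of a code, as do those of VEGF-A 4 and VEGF Trap 3, and what the codes mean is not stated; with hFc 1 and hFc 2 averaged into 1 sample no member gained or lost a call.

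Vessels of the retina, like those of the brain, keep blood and tissue apart. Their endothelial cells are sealed by tight junctions, take up little fluid in vesicles, and carry nutrients and hormones through dedicated transporters while efflux pumps return drugs to the blood. Norrin, made in the retina, acts through the receptor Fzd4 and Wnt signalling to keep this programme on, and VEGF-A is known as a factor that makes vessels leak.

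In retinas given VEGF-A, the thyroid hormone transporter Slco1c1 was 9.69-fold lower than with hFc, the lipid transporter Mfsd2a, the organic anion transporter Slco1a4 and the junction protein Ocln fell by close to 1 log2 unit each, and Cldn5 fell 1.26-fold, while Plvap rose 3.69-fold. The amino acid transporter Slc38a5 was 6.23-fold lower with VEGF-A than with VEGF Trap, and its hFc spots were all marked as outliers. After VEGF Trap, Cldn5 and Mfsd2a fell and the other tested genes did not pass the test. Slc38a5, with its marked hFc spots kept, was also lower than hFc there (log2 difference −0.90, limma, adjusted p = 0.00594). After Dll4-Fc none of the 7 tested genes passed it. The junction scaffold Tjp1 passed the test in none of the 5 comparisons.

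A single probe carries the results of Slco1c1, as it does for Slc38a5, Slco1a4 and Mfsd2a. Printed here are the probe of Slco1c1 and the probe that could bear on Abcb1a. Both are 60 bases, 5′ to 3′, as in the scanner files, and both span more of the chromosome than their own length by the files' coordinates (1364 bases for Slco1c1 on chromosome 6, 571 bases for the other on chromosome 5), that is, they cross exon junctions. Which genome build these coordinates use is not stated.
Slco1c1: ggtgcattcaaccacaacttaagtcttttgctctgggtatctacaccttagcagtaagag
Abcb4 probe 2: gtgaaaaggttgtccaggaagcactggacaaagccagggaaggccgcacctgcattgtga
Abcb1a, the P-glycoprotein pump that exports drugs from endothelial cells, had no probe of its own. The name Abcb4 was carried by 3 probes, which is also an older symbol of Abcb1a, but their accession was that of the current Abcb4, a phospholipid transporter of the liver. Abcb4 probe 2 also listed accessions of Abcb1a and its near copy Abcb1b, so its signal cannot be assigned to 1 gene, and it was not counted among the members.

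Promoter windows of 300 bases around the transcription start from RefSeq on GRCm38.p6 were matched for 8 of the 9 genes, with 2 for Ocln, and not for Plvap. Those of Slco1c1, Slc38a5 and Mfsd2a are shown, 5′ to 3′ on the gene's strand, because each differed from hFc by more than 1 log2 unit with VEGF-A (Slc38a5 with its marked hFc spots kept). Capitals mark matches, on either strand, to motifs searched by their letters: ATCAAAG (TCF/LEF), GGAAGT (ETS), ACAAAG (SOX), TGTTTAC (FOX), TGGGAA (RBPJ) and ACGTG (HIF). The TCF/LEF and SOX letters share CAAAG, and CACGTG matches ACGTG on both strands at once.
Slco1c1, chr6:141524104-141524403, plus strand: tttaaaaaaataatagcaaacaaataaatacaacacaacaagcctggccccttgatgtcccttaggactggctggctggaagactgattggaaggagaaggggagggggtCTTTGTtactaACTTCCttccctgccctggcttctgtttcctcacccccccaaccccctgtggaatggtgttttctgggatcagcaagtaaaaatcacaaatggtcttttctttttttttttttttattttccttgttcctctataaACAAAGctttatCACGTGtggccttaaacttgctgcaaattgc
Slc38a5, chrX:8271131-8271430, plus strand: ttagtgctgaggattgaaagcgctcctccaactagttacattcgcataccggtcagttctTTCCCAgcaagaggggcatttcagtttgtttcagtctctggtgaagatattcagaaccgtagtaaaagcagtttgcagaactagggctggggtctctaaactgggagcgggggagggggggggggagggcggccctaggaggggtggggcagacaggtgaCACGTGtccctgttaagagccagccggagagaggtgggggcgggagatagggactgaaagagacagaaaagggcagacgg
Mfsd2a, chr4:122961139-122961438, minus strand: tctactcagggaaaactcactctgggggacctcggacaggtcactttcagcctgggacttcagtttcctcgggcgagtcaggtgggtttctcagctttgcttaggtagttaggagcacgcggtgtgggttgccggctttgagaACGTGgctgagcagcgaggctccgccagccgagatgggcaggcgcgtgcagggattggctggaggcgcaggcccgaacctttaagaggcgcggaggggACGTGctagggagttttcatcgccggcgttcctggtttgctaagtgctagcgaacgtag
ACGTG was present in 4 of the 9 windows (Slco1c1, Slc38a5, Mfsd2a and Tjp1), against 19.6% of all 32851 promoter windows. Slco1c1 and Slc38a5 each held it inside CACGTG, and Mfsd2a held it at 2 places on its own strand. ACAAAG was present in 2 windows (Slco1c1 and Abcb1a; 18.7% of all), and TGTTTAC in 1 (Abcb1a; 3.6%). GGAAGT was present in 1 (Slco1c1; 23.8%) and TGGGAA in 1 (Slc38a5; 25.6%). ATCAAAG was in none of the 9 windows and in 3.7% of all. No motif of the 6 was found in the windows of Cldn5, Ocln or Slco1a4. These are matches of letters, in windows of one length, and say nothing of binding.

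Values below are log2 of sample over reference pool, so 0 is the level of the pool and a difference of 1 is a 2-fold difference; a level says nothing of how abundant a gene is next to another. Where a gene had several probes, the brightest is given first. Differences were tested by limma in 1 fit of all 4 groups, with adjusted p-values over all probes of a comparison and a threshold of 0.05. Retina markers were well above background on all 16 arrays (11 of 11 tested photoreceptor and neuron genes). Slides held hFc alone (slide 1), Dll4-Fc alone (slide 2), or VEGF-A and VEGF Trap together (slides 3 and 4), so in every comparison with hFc or Dll4-Fc, treatment and slide cannot be told apart. The hFc arrays held 2350 to 2599 spots marked as outliers by the scanner software, against 12 to 213 on the others, and many lay in a band of 170 rows. Lens genes varied widely within groups: the mean log2 of 6 of them ran from −3.15 to 0.36 on Dll4-Fc arrays, −3.28 to 0.08 on VEGF-A, −2.24 to 1.74 on VEGF Trap and −2.93 to 1.32 on hFc arrays. In this bulk RNA, fewer cells of a type and less RNA per cell cannot be told apart.

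**Figure D1:**
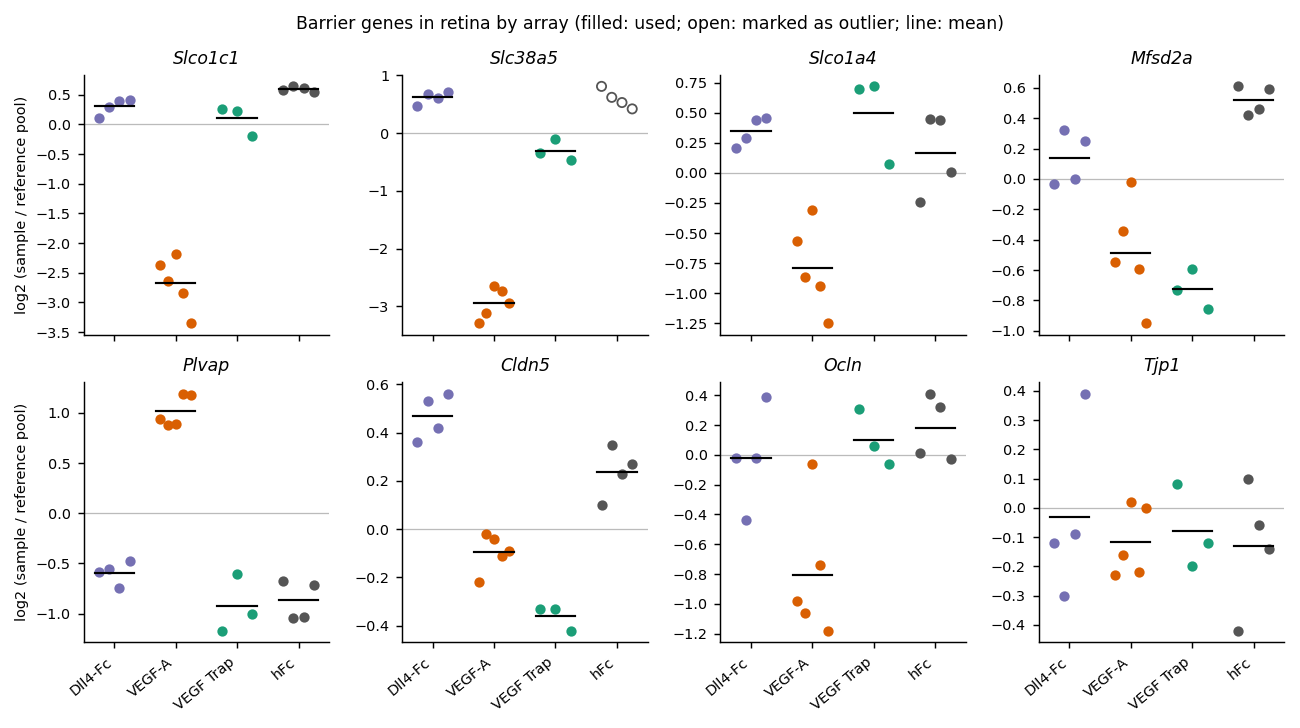
Log2 of sample over reference pool (vertical axis) for the brightest probe of each gene on the 16 arrays, by treatment group. Filled points were used, open points were marked as outliers by the scanner software, and lines are group means; the 5 VEGF-A arrays sit between −3.35 and −2.19 for Slco1c1 and all other arrays at or above −0.19.

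Slco1c1 is the carrier that brings thyroxine across brain and retinal vessels. Its log2 levels were −2.37, −2.64, −2.19, −2.85 and −3.35 on the VEGF-A arrays, and 0.58, 0.64, 0.61 and 0.55 on the hFc arrays. The groups lay far apart, with the VEGF-A arrays spread over more than 1 log2 unit and the hFc arrays within 0.1. The difference was −3.28 (SE 0.18, n = 5 and 4, limma, adjusted p = 8.07e-09), and it was −3.40 to −3.07 across 20 alternative settings. The Dll4-Fc arrays stood at 0.10, 0.30, 0.40 and 0.41, and the VEGF Trap arrays at 0.26, 0.23 and −0.19. Both groups lay wholly below hFc, but neither difference passed the test (−0.29, SE 0.19, adjusted p = 0.621 for Dll4-Fc; −0.50, SE 0.21, adjusted p = 0.208 for VEGF Trap). VEGF-A was also lower than VEGF Trap by 2.78 on the log2 scale (6.87-fold, adjusted p = 9.31e-08). With slide as a block that difference was −2.69, and on slide 3 alone −2.75, both past the threshold. On slide 4 alone it was −2.60; slide 4 holds 1 VEGF Trap array, so this value, here and for the genes below, has no spread between VEGF Trap samples behind it.

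Slc38a5 moves neutral amino acids such as glutamine, and in retinal vessels it is known as a gene that norrin keeps on. Its single probe gave −3.29, −3.11, −2.65, −2.74 and −2.94 on the VEGF-A arrays, and −0.35, −0.10 and −0.46 on the VEGF Trap arrays. The 2 groups did not overlap, and VEGF-A was 6.23-fold lower (log2 difference −2.64, SE 0.15, n = 5 and 3, limma, adjusted p = 9.31e-08). Within slides the difference was −2.97 on slide 3 and −2.32 on slide 4, and −2.69 with slide as a block. On the Dll4-Fc arrays it was 0.47, 0.67, 0.61 and 0.72, which put Dll4-Fc 11.8-fold above VEGF-A (log2 difference 3.56, SE 0.13, adjusted p = 5.10e-09). All 4 of its hFc spots were marked as outliers, in row 192 of the band, so the hFc comparisons have no main value. Those marked spots read 0.81, 0.62, 0.53 and 0.42, around the Dll4-Fc values. With them kept, VEGF-A differed from hFc by −3.54 (SE 0.13, adjusted p = 1.06e-10), VEGF Trap by −0.90 (SE 0.15, adjusted p = 0.00594) and Dll4-Fc by 0.02 (SE 0.14, adjusted p = 0.977). The authors' series matrix, which kept these spots, gave the same 3 differences.

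Slco1a4 carries organic anions and steroid conjugates across brain capillaries. Its levels on the VEGF-A arrays were −0.57, −0.87, −0.31, −0.94 and −1.25, and on the hFc arrays −0.24, 0.45, 0.44 and 0.01. The 2 groups came close, at −0.31 and −0.24, but did not overlap. VEGF-A was 1.93-fold lower (log2 difference −0.95, SE 0.20, n = 5 and 4, limma, adjusted p = 0.0056). Dll4-Fc arrays read 0.21, 0.29, 0.44 and 0.46, and VEGF Trap arrays 0.70, 0.72 and 0.07, both overlapping with hFc. Neither passed the test against hFc (0.19, SE 0.21, adjusted p = 0.806 for Dll4-Fc; 0.33, SE 0.22, adjusted p = 0.446 for VEGF Trap). VEGF-A was 2.43-fold lower than VEGF Trap (log2 difference −1.28, SE 0.22, adjusted p = 7.18e-04). That call held with slide as a block (−1.20) and on slide 3 (−1.42), and on slide 4, with 1 VEGF Trap array, the difference was −0.90 at an adjusted p of 0.147.

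Mfsd2a takes lysophospholipids with omega-3 fatty acids across the barrier and is known to hold down transport in vesicles. It fell with VEGF-A and with VEGF Trap. Its levels were −0.55, −0.34, −0.02, −0.59 and −0.95 on the VEGF-A arrays, and 0.61, 0.42, 0.46 and 0.59 on the hFc arrays. The difference was −1.01 (SE 0.15, n = 5 and 4, limma, adjusted p = 2.64e-04), a 2.02-fold lower level without overlap. On the VEGF Trap arrays it was −0.73, −0.59 and −0.86, a difference of −1.25 from hFc (SE 0.17, n = 3 and 4, adjusted p = 0.00139), also without overlap. VEGF-A and VEGF Trap overlapped, and their difference of 0.24 did not pass the test (95% interval −0.11 to 0.58, adjusted p = 0.349). Within slides that difference was 0.21 on slide 3 and 0.34 on slide 4. The Dll4-Fc arrays, at −0.03, 0.32, 0.00 and 0.25, lay between the hFc and VEGF Trap arrays, and did not pass the test against hFc (−0.39, SE 0.16, adjusted p = 0.286). Dll4-Fc was higher than VEGF-A by 0.62 (SE 0.15, adjusted p = 0.0102), with 1 VEGF-A array, VEGF-A 3, inside the Dll4-Fc range.

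For the Abcb1a pump the files gave no value of its own. The shared Abcb4 probe 2 read 0.03, −0.01, 0.09, −0.12 and −0.10 on the VEGF-A arrays, and 0.20, 0.59, 0.33 and 0.11 on the hFc arrays. Its difference was −0.33 (SE 0.09, limma, adjusted p = 0.0408), and it passed the test in none of the other 4 comparisons. The brightest Abcb1b probe differed by −0.23 (adjusted p = 0.242), a dimmer one by 0.53 (adjusted p = 0.0162) and the dimmest by 0.78 (adjusted p = 0.163). Processed Cy3 signals of the dimmest were only 3 to 34 over all arrays. The probes of the near copy thus disagreed in sign, and the only lower value did not pass the test. The other probes named Abcb4 differed by −0.14 and −0.13, neither past the threshold.

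Plvap forms the diaphragms of fenestrae and caveolae, and is low in vessels with a mature barrier. Its first probe read 0.94, 0.88, 0.89, 1.19 and 1.18 on the VEGF-A arrays, and −0.68, −1.04, −1.03 and −0.72 on the hFc arrays. Every VEGF-A array was above every other array of the series. VEGF-A exceeded hFc by 1.88 (SE 0.12, n = 5 and 4, limma, adjusted p = 4.42e-08). It exceeded VEGF Trap, at −1.17, −0.61 and −1.0, by 1.94 (SE 0.13, n = 5 and 3, adjusted p = 5.98e-08). On slides 3 and 4 alone the difference from VEGF Trap was 1.80 and 2.09, and 1.92 with slide as a block. The Dll4-Fc arrays read −0.59, −0.56, −0.74 and −0.48, close to the upper end of hFc. Their difference from hFc was 0.28 (SE 0.13, adjusted p = 0.406) and that of VEGF Trap from hFc −0.06 (SE 0.14, adjusted p = 0.852), neither past the test. The second probe lay in the outlier band, with 3 of its 4 hFc spots marked, so its hFc comparisons rest on 1 array. It averaged 1.08 ± 0.13 on the VEGF-A arrays (SD, n = 5), and −0.90 ± 0.19 on the hFc arrays with the marked spots kept (n = 4).

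Cldn5 is the main claudin of endothelial tight junctions. It fell with VEGF Trap and with VEGF-A, and both of its probes did so. The VEGF-A arrays read −0.22, −0.02, −0.04, −0.11 and −0.09, the VEGF Trap arrays −0.33, −0.33 and −0.42, and the hFc arrays 0.10, 0.35, 0.23 and 0.27. The 3 groups did not overlap. VEGF Trap was 1.51-fold lower than hFc (log2 difference −0.59, SE 0.08, n = 3 and 4, limma, adjusted p = 0.00151), and VEGF-A 1.26-fold lower (−0.33, SE 0.07, n = 5 and 4, adjusted p = 0.00731). The second probe, outside the outlier band, gave −0.57 and −0.34, both called. With normexp background correction and loess the VEGF-A difference was −0.23 (adjusted p = 0.0554). With only the slide 4 arrays of VEGF-A and VEGF Trap it was −0.32, which did not pass either. VEGF-A was above VEGF Trap by 0.26 (SE 0.08, adjusted p = 0.0305), a call that ended without VEGF-A 2, 3, 4 or 5 or any 1 of the VEGF Trap arrays (0.23 to 0.28, adjusted p = 0.0517 to 0.125) and with Cy3 alone (0.27, adjusted p = 0.149). The second probe did not pass in this comparison (0.23, adjusted p = 0.0575). On slide 3 alone it was 0.21 (adjusted p = 0.34), on slide 4 alone 0.34 (adjusted p = 0.142), and with slide as a block 0.27 (adjusted p = 0.0418). Its highest values, 0.36, 0.53, 0.42 and 0.56, were on the Dll4-Fc arrays. These lay above all hFc arrays, but the difference of 0.23 did not pass the test (SE 0.08, adjusted p = 0.144). On the second probe the Dll4-Fc and hFc arrays overlapped, and the difference of 0.24 did not pass either.

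Ocln is a membrane protein of tight junctions, made by vessel endothelium and also by the retinal pigment epithelium. Its brightest probe read −0.98, −1.06, −0.06, −0.74 and −1.18 on the VEGF-A arrays, and 0.01, 0.41, 0.32 and −0.03 on the hFc arrays. Of the VEGF-A arrays, 4 lay well below, and VEGF-A 3 just below the lowest hFc array. VEGF-A was 1.97-fold lower (log2 difference −0.98, SE 0.21, n = 5 and 4, limma, adjusted p = 0.00744), and probe 2 gave −1.18, also called. Probe 3 gave −1.02 with overlapping groups, at processed Cy3 signals of 3 to 19. With normexp and loess its values shrank to −0.07 to 0.23 on VEGF-A arrays and 0.06 to 0.31 on hFc arrays, so its difference depends on the background correction. Against VEGF Trap, at 0.31, 0.06 and −0.06, VEGF-A was lower by 0.90 on average (log2 difference −0.90, SE 0.23, adjusted p = 0.0140). That call ended without VEGF Trap 1 (−0.80, adjusted p = 0.0758) and on slide 4 alone (−0.60, adjusted p = 0.408), and held on slide 3 alone (−1.20) and with slide as a block (−0.94). VEGF Trap differed from hFc by −0.07 (SE 0.24, adjusted p = 0.898). The Dll4-Fc arrays, at −0.02, −0.44, −0.02 and 0.39, overlapped with hFc (−0.20, SE 0.22, adjusted p = 0.809). They exceeded VEGF-A by 0.78 (SE 0.21, adjusted p = 0.0235), which no longer passed without Dll4-Fc 1, 3 or 4 or VEGF-A 1, 2 or 5 (0.65 to 0.78, adjusted p = 0.0541 to 0.0788). With Cy3 alone this difference was 0.64 and did not pass either (limma, adjusted p = 0.0763). In the same comparison probe 2 gave 0.97 (limma, adjusted p = 0.00116) and probe 3 gave 0.81 (limma, adjusted p = 0.056). For VEGF-A against VEGF Trap, probes 2 and 3 gave −1.09 and −1.13, both called. Mean log2 of 11 retinal pigment epithelium genes ran from −0.75 to 0.17 on VEGF-A arrays and from −0.75 to −0.04 on hFc arrays, with VEGF-A 3 the highest VEGF-A array; their part in the Ocln values was not tested.

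Tjp1 (ZO-1) is the scaffold that ties claudins and occludin to actin, in many cell types. Its brightest probe read −0.23, −0.16, 0.02, −0.22 and 0.00 on the VEGF-A arrays, and −0.42, 0.10, −0.06 and −0.14 on the hFc arrays. These ranges overlapped fully, and the difference was 0.01 (SE 0.13, 95% interval −0.28 to 0.30, limma, adjusted p = 0.970). The Dll4-Fc arrays, at −0.12, −0.30, −0.09 and 0.39, and the VEGF Trap arrays, at 0.08, −0.20 and −0.12, overlapped with hFc as well. Their differences from hFc were 0.10 (95% interval −0.20 to 0.40) and 0.05 (−0.28 to 0.38). The second probe gave differences from hFc of −0.09, −0.09 and 0.06 for VEGF-A, Dll4-Fc and VEGF Trap. Probe 3, the dimmest, ran from −1.13 on Dll4-Fc 2 to 0.92 on VEGF Trap 3.

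**Figure D2:**
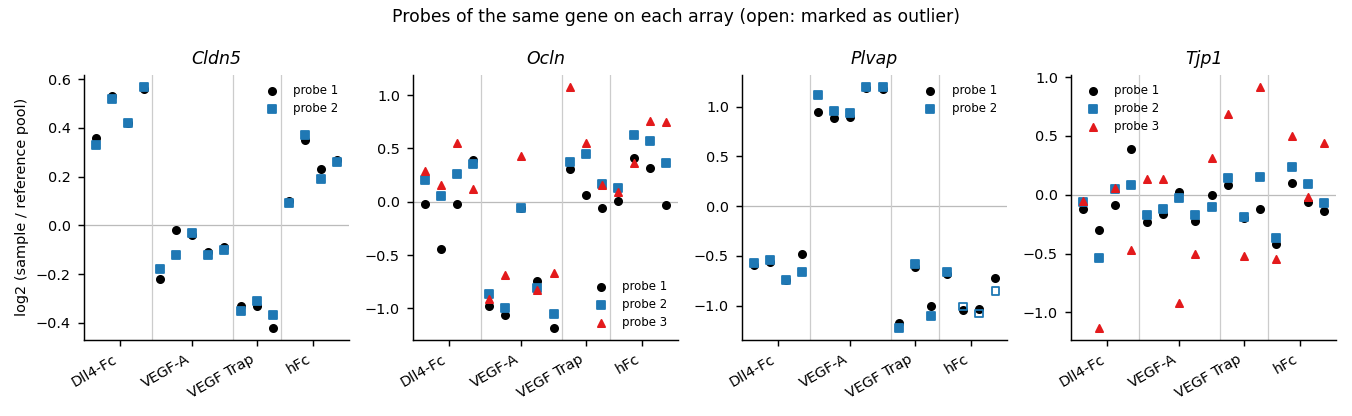
Log2 of sample over reference pool (vertical axis) for each probe of the 4 genes with several probes, on the 16 arrays ordered by group (horizontal axis); open symbols were marked as outliers. The 2 Cldn5 probes and the 2 Plvap probes lie close together on each array, while probe 3 of Ocln and of Tjp1, the dimmest of each gene, scatter more. Mean log2 Cy3 signal was 2.64 for Ocln probe 3, and 7.91 both for Tjp1 probe 3 and for the brightest Ocln probe.

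Counted over the genes' brightest probes, VEGF-A against hFc called 5 of 7 genes lower and 1 higher, against 9.46% of all 22811 genes tested (3.78% lower, 5.68% higher). The members were chosen with earlier results of these data known, so these counts describe them and test nothing. The median difference of the 7 was −0.95, and that of all genes −0.05. VEGF Trap against hFc called 2 of 7 lower, against 2.91% of all genes (1.89% lower, 1.01% higher); the median of the 7 was −0.07 and that of all genes −0.02. Dll4-Fc against hFc called 0 of 7 by limma, against 4.35% of all genes (2.92% higher, 1.43% lower); 2 of the 7, Cldn5 and Mfsd2a, had an unadjusted p under 0.05, and the count was 0 under every alternative setting run. VEGF-A against VEGF Trap, the comparison whose groups shared slides, called 4 of 8 lower and 2 higher, against 18.0% of all 23362 genes (7.92% lower, 10.1% higher). The members' median there was −0.47, and that of all genes −0.03. Dll4-Fc against VEGF-A called 6 of 8 higher (all but Plvap and Tjp1) and 1 lower, against 12.7% of all genes (6.05% higher, 6.69% lower), with a median of 0.70 beside 0.02. The 3 comparisons with hFc share their hFc arrays, and those with VEGF-A share their VEGF-A arrays, so the counts are not independent.

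The order of the groups differed between genes. Mean log2 levels of Slco1c1 were 0.30 ± 0.14 with Dll4-Fc, −2.68 ± 0.45 with VEGF-A, 0.10 ± 0.25 with VEGF Trap and 0.60 ± 0.04 with hFc (SD, n = 4, 5, 3 and 4, as in the rest of these values). VEGF-A stood alone at the bottom, and the arrays of Dll4-Fc and VEGF Trap, neighbours in the middle, overlapped. Slc38a5 averaged 0.62 ± 0.11 with Dll4-Fc, −2.94 ± 0.26 with VEGF-A and −0.30 ± 0.18 with VEGF Trap, with no overlap between neighbours. Slco1a4 averaged 0.35 ± 0.12 with Dll4-Fc, −0.79 ± 0.36 with VEGF-A, 0.49 ± 0.37 with VEGF Trap and 0.17 ± 0.34 with hFc. Its upper 3 groups overlapped and VEGF-A lay below them. Ocln had the same lowest group, at −0.02 ± 0.34 with Dll4-Fc, −0.80 ± 0.45 with VEGF-A, 0.10 ± 0.19 with VEGF Trap and 0.18 ± 0.22 with hFc, though VEGF-A 3 reached into the Dll4-Fc and VEGF Trap ranges. For Mfsd2a the lowest group was VEGF Trap, with means of 0.14 ± 0.18 for Dll4-Fc, −0.49 ± 0.34 for VEGF-A, −0.73 ± 0.13 for VEGF Trap and 0.52 ± 0.09 for hFc. VEGF Trap was also lowest for Cldn5, whose means were 0.47 ± 0.09 for Dll4-Fc, −0.09 ± 0.08 for VEGF-A, −0.36 ± 0.05 for VEGF Trap and 0.24 ± 0.11 for hFc. No 2 groups overlapped on this probe of Cldn5, but on its second probe Dll4-Fc 1, at 0.33, lay below hFc 2, at 0.37. Plvap had VEGF-A at the top, with means of −0.59 ± 0.11 for Dll4-Fc, 1.02 ± 0.16 for VEGF-A, −0.93 ± 0.29 for VEGF Trap and −0.87 ± 0.19 for hFc, and its lower 3 groups overlapped. The 4 means of Tjp1 all lay between −0.13 and −0.03.

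**Figure D3:**
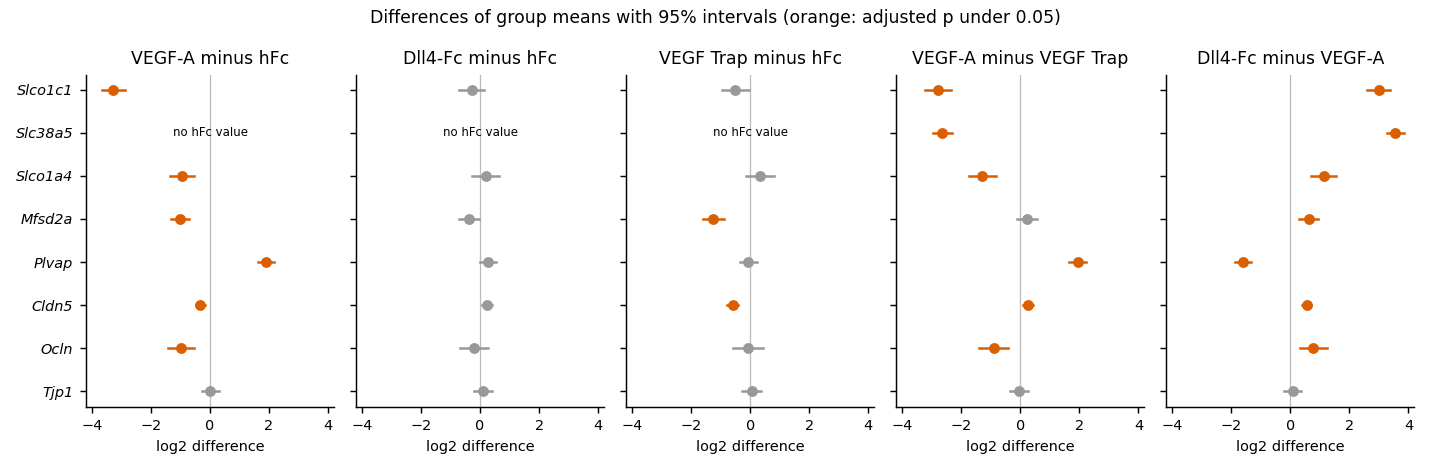
Differences of group means (log2, horizontal axis) with 95% intervals for the brightest probe of each gene (rows) in the 5 comparisons (panels); orange marks an adjusted p under 0.05, and Slc38a5 has no hFc value once marked spots are left out. Slco1c1 and Slc38a5 stand furthest below 0 in VEGF-A minus VEGF Trap, at −2.78 and −2.64, and Plvap above it at 1.94.

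General endothelial genes moved beside these members. Of 20 endothelial marker genes, 14 were called higher and 2 lower with VEGF-A than with hFc (median 1.03; Cd34, a surface sialomucin, rose by 2.07), and 15 lower with VEGF Trap (median −0.57; the receptor Tie1 fell by 0.79). With Dll4-Fc 7 were higher (median 0.21). Shares over all genes were 5.68% higher and 3.78% lower with VEGF-A, 1.89% lower with VEGF Trap and 2.92% higher with Dll4-Fc. The mean log2 of the 16 of them measured on all arrays was 0.53 to 0.63 on VEGF-A arrays, −0.88 to −0.81 on VEGF Trap arrays, −0.16 to −0.01 on Dll4-Fc arrays and −0.34 to −0.22 on hFc arrays. Their part in the members' differences was not tested. Set against that mean on the same array, as a description, Cldn5 stood at −0.67 ± 0.06 with VEGF-A (SD, n = 5), 0.49 ± 0.04 with VEGF Trap (n = 3), 0.54 ± 0.04 with Dll4-Fc (n = 4) and 0.54 ± 0.09 with hFc (n = 4). The endothelial mean itself moved between groups, and every gene shifts with it on this scale: Tjp1, which passed no test, stood at −0.69 ± 0.09 with VEGF-A, 0.77 ± 0.17 with VEGF Trap, 0.04 ± 0.27 with Dll4-Fc and 0.17 ± 0.19 with hFc. Mfsd2a stood at −1.07 ± 0.33 with VEGF-A, 0.12 ± 0.10 with VEGF Trap, 0.21 ± 0.13 with Dll4-Fc and 0.82 ± 0.14 with hFc, below all hFc arrays in the other 3 groups. Slco1c1 stood at −3.26 ± 0.45 with VEGF-A, 0.95 ± 0.23 with VEGF Trap, 0.38 ± 0.10 with Dll4-Fc and 0.89 ± 0.03 with hFc. Plvap stood at 0.44 ± 0.16 with VEGF-A, −0.08 ± 0.26 with VEGF Trap, −0.52 ± 0.10 with Dll4-Fc and −0.57 ± 0.23 with hFc.

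**Figure D4:**
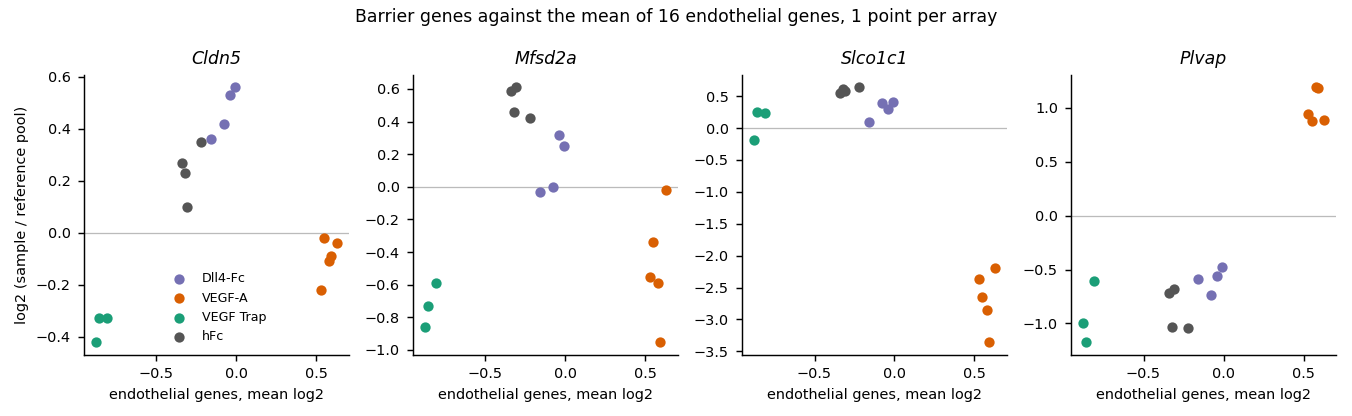
Log2 of sample over reference pool for 4 members (vertical axes) against the mean log2 of 16 endothelial genes (horizontal axis), 1 point per array. The VEGF-A arrays lie furthest right in each panel and lowest for Slco1c1, while for Cldn5 the VEGF Trap arrays, at −0.42 to −0.33, are lowest.

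Correlations across arrays, which treatment alone can set, are given as a description. Slco1c1 and Slc38a5 had r = 0.965 over the 12 arrays without hFc, and Slco1c1 had r = 0.895 with Slco1a4, 0.858 with Ocln and −0.963 with Plvap over 16 arrays. Mfsd2a and Cldn5 had r = 0.783 with each other, and 0.601 and 0.438 with Slco1c1. Of 15748 genes measured on all 16 arrays, those close to Slco1c1 included Angpt4 (r = 0.955) and Kcnj8 (0.953). Closest to Slc38a5, over 12 arrays and 17952 genes, were Rflnb (0.988), Kcnj8 (0.980) and Ednra (0.978). Mfsd2a was closest to Higd1b (0.906), A530016L24Rik (0.876) and Clec3b (0.872), and Cldn5 to Mmp25 (0.900), Slc40a1 (0.896) and C130074G19Rik (0.889). Plvap was closest to S100a11 (0.988), Anxa2 (0.987) and Exoc3l2 (0.987). Genes close to Slco1a4 included Adh1 (0.942) and Ankrd37 (0.939). Ocln was closest to 4921504A21Rik (0.939) and Tjp1 to Fam168b (0.922). Kcnj8, a potassium channel of pericytes, fell by 2.13 with VEGF-A, but the pericyte genes Des and Cspg4 rose by 1.85 and 1.61. Over 10 pericyte genes 2 were higher and 4 lower than with hFc, against 5.68% and 3.78% of all genes. With VEGF Trap, where Cldn5 and Mfsd2a fell, 4 of the 10 were lower (median −0.49), among them Higd1b by −1.15, against 1.89% of all genes. The mean log2 of the 10 was −0.48 to −0.27 on VEGF Trap arrays and 0.00 to 0.09 on hFc arrays, and their part in the members' differences was not tested.

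Other genes of the barrier were called in both directions. Beside them, VEGF-A against hFc called 5.68% of all genes higher and 3.78% lower. Of 22 other transporters and receptors of the barrier, VEGF-A called 3 higher and 3 lower than hFc, with a median of −0.21. The organic anion carrier Slco2b1 fell by 1.01 and the iron exporter Slc40a1 by 0.55, and the efflux pump Abcg2 rose by 0.74. Of 22 other junction genes, 4 were higher and 1 lower (median 0.04), among them the adhesion genes Esam (0.99), F11r (0.85) and Cdh5 (1.07). Of 10 genes of caveolae and vesicle transport, 5 were higher and 1 lower (median 0.53), with the caveola coat genes Cavin1 (1.07) and Cavin3 (1.05) and the caveola ATPase Ehd2 (1.05) up beside Plvap. Of 21 tested genes of the norrin and Wnt programme, 5 were higher and 4 lower (median 0.10). The norrin receptor Fzd4 rose by 1.25, while Apcdd1, of the same list, averaged −0.79 with VEGF-A and −0.11 with hFc. Esam, Cdh5 and Sox18 are also on the endothelial list.

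Of all genes, VEGF Trap against hFc called 1.01% higher and 1.89% lower, and Dll4-Fc against hFc 2.92% higher and 1.43% lower. With VEGF Trap against hFc, 1 of the 22 other transporters was higher and 2 lower, the metal ion carrier Slc39a8 by −1.17 and Slc40a1 by −0.52. Of the other junction genes 3 were higher and 2 lower; Cdh5 fell by 0.59 and Tjp3 rose by 0.54. Of the norrin and Wnt genes 5 were lower, with the endothelial transcription factors Foxf2 (−0.60), Foxq1 (−0.59) and Sox18 (−0.50) lower. With Dll4-Fc against hFc, 2 other transporters were higher (Slc40a1 by 0.61 and Slco2b1 by 0.56). Of the other junction genes 2 were higher (F11r by 0.61 and Magi1 by 0.51), and the caveola genes Cav1 and Cav2 were lower, by −2.33 and −1.03. Dll4-Fc also went with 9 of 12 Müller glia genes lower and 7 of 8 microglia genes higher than hFc, with P2ry12 lower. With VEGF-A, 2 of 12 Müller glia genes were higher and 3 lower, and 2 of 7 astrocyte genes were higher. The shares over all genes there were 5.68% higher and 3.78% lower. Gfap rose by 2.36 and Vim by 1.89, while Aqp4 fell by 1.79 and Glul by 1.53. Whether these cells add to the members' signals was not tested.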

How the data were processed

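Retinal RNA of 16 samples was labelled with Cy3 and hybridised with a Cy5 reference pool on Agilent mouse arrays, with no dye swap. Per the file headers and the submitters' processing notes, Feature Extraction 9.5.1.1 gave the intensity values, background-subtracted and dye-normalized, and the deposited log10 ratio of Cy5 over Cy3. The sign was turned and the value set to log2 of sample over reference. The authors deposited a series matrix whose values are the natural log of the same ratio, used as an alternative. Outlier spots were left out, spots of a probe averaged, and 39788 of 43426 probes kept, those that 3 or more arrays showed well above the Cy3 background. Names were updated through a RefSeq table (25775 by accession, 7185 by symbol, 3283 by older symbol, 7183 by the file's name), and a gene took its brightest probe. Groups came from the labels; limma 3.58.1 (R 4.3.3) tested 5 comparisons, 2-sided, Benjamini-Hochberg over all probes at 0.05; limma was checked on simulated data. Arrays per group limit the precision. The text names every member probe's result, up to 3 called genes a list, and the 3 genes most alike in pattern; 1 such gene is not reported here. Members and lists were chosen with earlier results of these data known. Alternatives were the background correction, Cy3 alone, outlier spots, dim probes, the probe rule, slides, a variance trend and leaving out arrays; omitting the outlier band was added after seeing the data.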

Additional observations from a re-analysis of the deposited data

Results flagged for a closer look

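Of 40 groups of 4 or 5 values of the member probes, 2 held an array far from the others, where chance alone flags about 5% of groups. Both were VEGF-A 3 for Ocln. Ocln probe 2 read −0.06 on VEGF-A 3, against −1.05 to −0.81 on the other VEGF-A arrays, and Ocln probe 3 read 0.43, against −0.91 to −0.67. The brightest Ocln probe also had its highest VEGF-A value there, −0.06. Probe 3 was close to background, with a processed Cy3 signal of 3 to 4 on the other VEGF-A arrays and 19 on VEGF-A 3.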

How the results depend on the processing

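Among values of single genes under alternative settings, 625 kept their direction and side of the threshold, 24 lost a call and 24 changed sign, the last all for differences that were not called. Against hFc, VEGF Trap differences of Ocln were 0.04 with normexp and loess, 0.06 with Cy3 alone, 0.01 with slide 3 only and −0.18 to 0.01 leaving out an array; Plvap gave −0.22 to 0.06 leaving out an array; and Slco1a4 gave −0.10 with slide 4 only. Tjp1 gave, for VEGF-A against hFc, −0.08 (normexp and loess), −0.06 (slide 3 only), −0.11 (mean over probes) and −0.08 to 0.09 leaving out an array; for Dll4-Fc against hFc −0.01, −0.16 (mean over probes) and −0.04 to 0.19; for VEGF Trap against hFc −0.06 and −0.04 to 0.13; for VEGF-A against VEGF Trap 0.06 (slide 4 only) and −0.10 to 0.04; and for Dll4-Fc against VEGF-A −0.05 (mean over probes) and −0.06 to 0.18. With slide 4 only, which leaves 1 VEGF Trap array, called members numbered 1 in VEGF Trap against hFc and 3 in VEGF-A against VEGF Trap; Mfsd2a in VEGF Trap against hFc was then −1.38 (adjusted p = 0.0641) and Ocln in VEGF-A against hFc −0.84 (adjusted p = 0.0999). Probes called in VEGF Trap against hFc, 1046 as reported, were 2503 (normexp and loess), 388 (Cy3 alone), 539 (hFc 1 and 2 averaged), 245 (slide 4 only) and 259 to 933 leaving out an array. In VEGF-A against VEGF Trap 6714 became 4183 (slide 3 only), 3311 (slide 4 only) and 4173 to 6609. The causes were not tested. No paired analysis was possible because replicate numbers were given in accession order and pair nothing, and the code shared by VEGF-A 4 and VEGF Trap 3 gives 1 pair at most.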
